A study of Mus musculus with 16 samples.

Results

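Near-end peaks are the consensus H3K27me3 peaks on mouse chromosomes 1 to 19, without chromosome 11, that end before position 8000000. Mouse autosome assemblies begin at about 3 Mb, after the unassembled centromeric end, so these peaks lie in the first 5 Mb of assembled sequence next to the centromere. The rule used position alone and found 2358 peaks, of 96359 on the same 18 chromosomes and 102957 in the whole list. They were compared with the other 94001 peaks of those chromosomes. The last members inside the limit, on chromosomes 10, 14 and 12, had log2 H3K27me3 over input of -0.49, -0.25 and -0.34, and the first peaks outside, on chromosomes 2, 12 and 6, had -0.11, -0.31 and -0.44.

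H3K27me3, trimethylation of lysine 27 of histone H3, is placed by Polycomb repressive complex PRC2 and in embryonic stem cells marks silent developmental genes, often as broad domains over CG-rich promoters. Mouse autosomes are telocentric: the centromere lies at the very end of the chromosome, and its satellite DNA, which is not in the assembly, carries mainly another mark, H3K9 methylation. Firre is a long noncoding RNA transcribed from the X chromosome. Its locus is known for contacts with regions on other chromosomes and for a role in keeping H3K27me3 on the inactive X.

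The cells were mouse embryonic stem cells kept in serum, LIF and a pair of kinase inhibitors, PD0325901 plus CHIR99021, and the study asked how H3K27me3 responds when Firre is induced with doxycycline in a Firre WT and a Firre KO background. There were 4 lines: WT control (genotype WT), WT transgene (Firre WT with an inducible Firre transgene), KO control (Firre KO) and KO transgene (Firre KO with the inducible transgene). Every line, controls included, is labelled doxycycline, at 0 and 48 h, with 1 H3K27me3 and 1 input (no antibody) library each. This gives 16 libraries and 8 conditions. No condition was repeated, and the labels do not say whether a line is a clone or how many lines stand behind a genotype, so p-values below measure the spread between these libraries only.

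Total counts over all peaks were 10380781 to 14787938 in the H3K27me3 libraries and 3340654 to 6244333 in the inputs, the lowest of each kind being KO control at 0 h. All 10 silenced developmental marker genes carried a peak, with a median of 1.79 times input, against 1 of 10 pluripotency genes. All 5 fibroblast and all 5 primitive endoderm markers carried a peak too. The label of the KO control line was not borne out by its DNA. Input at the peak over Firre, per base and relative to chromosome X peaks, was 0.694 for WT control and 14.9 for WT transgene, on 9 and 193 reads. It was 11.1 for the line labelled KO control and 10.7 for KO transgene, on 110 and 136 reads. Results that rest on this line are therefore also given without it where the model allows. The term of background by transgene, used below, cannot be fitted without it. With this line left out, the additive fits compare KO transgene with WT transgene for background. For the transgene they compare WT transgene with WT control.

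Promoter sequences are shown first because the strongest near-end peaks lay on gene starts that differ widely in CG content. Each is 300 bases, 250 before and 50 after the start, 5′ to 3′ on the gene's strand, from RefSeq (GRCm38.p6), with each CG dinucleotide in capitals. The Tmem151a promoter (chr19:5085442-5085741, minus strand) holds 43 CG, more than 97.4% of promoters in the table. Npas4 (chr19:4989922-4990221, minus strand) holds 21, Zfp580 (chr7:5051282-5051581, plus strand) 19, and the start of Dlx6os1 inside the Dlx5 and Dlx6 domain (chr6:6869484-6869783, minus strand) 5.
Tmem151a: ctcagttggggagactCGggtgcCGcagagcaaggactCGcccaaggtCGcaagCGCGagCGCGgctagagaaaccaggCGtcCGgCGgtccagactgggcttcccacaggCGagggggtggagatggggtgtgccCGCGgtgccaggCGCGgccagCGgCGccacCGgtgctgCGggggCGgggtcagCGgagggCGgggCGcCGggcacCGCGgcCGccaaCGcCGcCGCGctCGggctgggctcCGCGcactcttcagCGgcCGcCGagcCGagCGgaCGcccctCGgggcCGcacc
Npas4: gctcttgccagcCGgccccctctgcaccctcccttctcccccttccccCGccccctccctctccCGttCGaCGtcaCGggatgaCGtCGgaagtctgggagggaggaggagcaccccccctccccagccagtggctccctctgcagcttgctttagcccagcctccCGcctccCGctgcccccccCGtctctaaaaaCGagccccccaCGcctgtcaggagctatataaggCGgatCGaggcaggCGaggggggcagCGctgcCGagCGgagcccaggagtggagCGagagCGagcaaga
Zfp580: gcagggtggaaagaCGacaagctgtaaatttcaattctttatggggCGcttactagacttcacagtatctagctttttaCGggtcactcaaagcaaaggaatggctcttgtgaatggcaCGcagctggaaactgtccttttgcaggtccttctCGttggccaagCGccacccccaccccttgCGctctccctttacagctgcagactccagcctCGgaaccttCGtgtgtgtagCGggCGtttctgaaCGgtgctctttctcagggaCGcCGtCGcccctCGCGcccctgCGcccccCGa
Dlx6os1: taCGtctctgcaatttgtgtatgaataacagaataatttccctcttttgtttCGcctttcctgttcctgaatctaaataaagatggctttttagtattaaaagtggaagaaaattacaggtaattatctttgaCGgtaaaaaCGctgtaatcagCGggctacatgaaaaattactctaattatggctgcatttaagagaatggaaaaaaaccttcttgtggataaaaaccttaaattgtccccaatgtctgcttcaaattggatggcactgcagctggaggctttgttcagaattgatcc

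The letters CG, which read the same on both strands, were absent from 5.43% of the 32851 promoters in the table. Near-end promoters overlapped a peak less often than the others: 224 of 1137 (19.7%) lay in a member, against 32.5% of the other promoters of these chromosomes in a peak. Near-end promoters had the same median CG number, 7, as all promoters. Among promoters in a member, the 86 in peaks called higher than input had a median of 14.5 CG, and the 138 in other members had 5. The same split on the rest of these chromosomes gave 12 and 5. The Dlx6os1 promoter above shows that a CG-poor start can also lie in one of the most enriched domains. That domain has 1 ratio for its whole 62142 bp, which does not tell how enriched this start itself is.

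Peaks were sparse near the centromeric end. There were 26.2 peaks per Mb in the first 5 Mb, 42.9 in the remainder of the same chromosomes and 47.1 in the last 5 Mb. Peaks covered 10.1% of the first 5 Mb, 19.5% of the remainder and 25.5% of the last 5 Mb. Near-end peaks were also narrower, with a median width of 2050.5 bp against 2328 and 2698 bp, and 52 of them (2.21%) were 20 kb or wider, against 3.27% and 4.93%. From 13 to 18 Mb there were 28.1 peaks per Mb, 9.94% covered and a median width of 2043 bp. From 18 to 23 Mb the values were 29.2, 10.7% and 1983 bp, and from 8 to 13 Mb 34.4, 14.6% and 2211 bp. Low coverage and narrow peaks were therefore not particular to the first 5 Mb, and its density was only slightly below that from 13 to 23 Mb. All of these are single counts from 1 list and carry no replicate error, and how much of the first 5 Mb can be mapped was not tested.

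The chromosomes differed widely. Members ranged from 31 on chromosome 9 (6.2 per Mb) and 34 on chromosome 3 (6.8 per Mb) to 243 on chromosome 2 (48.6 per Mb). The first 5 Mb was sparser than the remainder of its own chromosome in 15 of 18 chromosomes and denser on chromosomes 2, 12 and 17. Chromosome 9 had 0.128 times the density of its remainder and chromosome 2 had 1.15 times. On chromosome 14 the first peak began only at 4.32 Mb. Protein-coding genes were not sparse in these stretches, at 9.79 per Mb against 8.29 elsewhere. The stretch with most of them, on chromosome 19 (183 genes), had 169 peaks, whereas chromosome 2 with 32 genes had 243. Across the 18 chromosomes the number of peaks and of coding genes were weakly related, with Pearson's r 0.15 and Spearman's rho 0.20 as a description over stretches that share libraries.

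**Figure D1:**
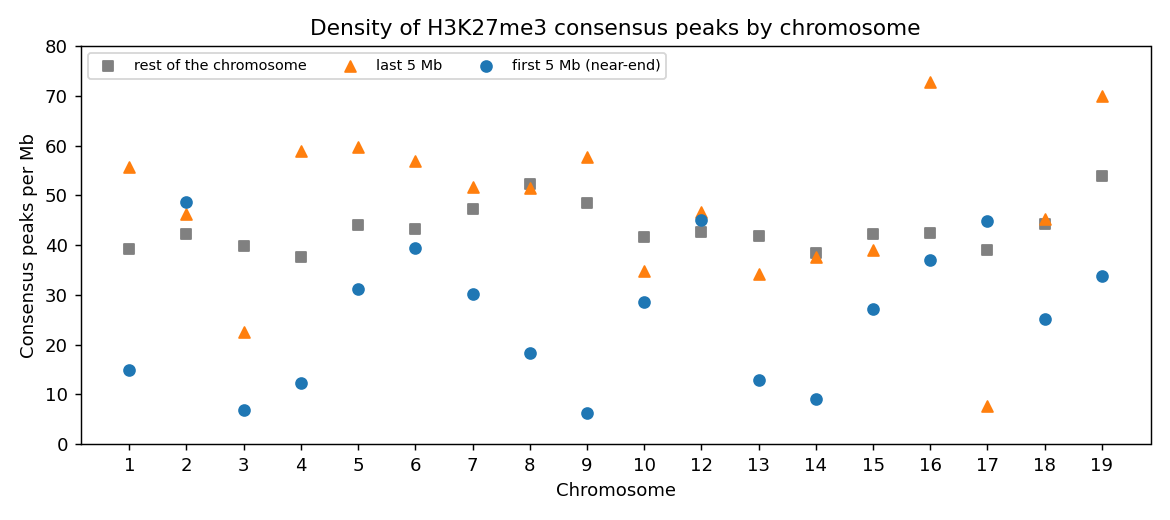
Consensus peaks per Mb (y axis) on each of 18 chromosomes (x axis) in the first 5 Mb of assembled sequence (circles), the remainder of the chromosome (squares) and its last 5 Mb (triangles). The circles lie below the squares on every chromosome shown except 2, 12 and 17.

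H3K27me3 over input was slightly lower near the end. Relative to the other peaks of the same chromosomes, the summed near-end counts gave a ratio of H3K27me3 to input of 0.965 in WT control at 0 h and 0.968 at 48 h, 0.963 and 0.974 in WT transgene, 0.959 and 0.960 in KO transgene, and 0.944 at both times for the line labelled KO control. All 8 conditions were below 1, with the lowest values in the line labelled KO control and the highest in WT transgene at 48 h. The mean log2 ratio was -0.06 ± 0.016 (SD, n = 8 conditions), with p = 0.0078125 by an exact two-sided sign-flip permutation test, the smallest this test allows, and 0.0104 after adjustment over 4 comparisons. Taken over the 4 lines the exact permutation p was 0.125, also the smallest possible. The last 5 Mb lay on the other side, at 0.086 ± 0.0064 (SD, n = 8) above the remaining peaks, with the same exact permutation p.

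This lower ratio was not particular to the first 5 Mb. Against the peaks between 8 and 23 Mb the difference was -0.0027 ± 0.014 (SD, n = 8), below 0 in 5 of 8 conditions, and did not hold up (exact permutation p = 0.586). Of 12 consecutive 5 Mb steps that every chromosome has, the first had the lowest peak density and the third lowest ratio, at -0.058 ± 0.016 on the log2 scale relative to all peaks, and the steps from 8 to 23 Mb lay between -0.061 and -0.050. Within the first 5 Mb the ratio had no steady slope. By 1 Mb steps it was -0.108 ± 0.025 from 3 to 4 Mb, -0.049 ± 0.020 and -0.024 ± 0.025 in the next steps, -0.057 ± 0.023 from 6 to 7 Mb and -0.090 ± 0.013 from 7 to 8 Mb (SD, n = 8 conditions each). The step from 5 to 6 Mb was below 0 in 6 of 8 conditions, and the other 4 steps in all 8. Without peaks of 20 kb or wider in either set the difference was -0.024.

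**Figure D2:**
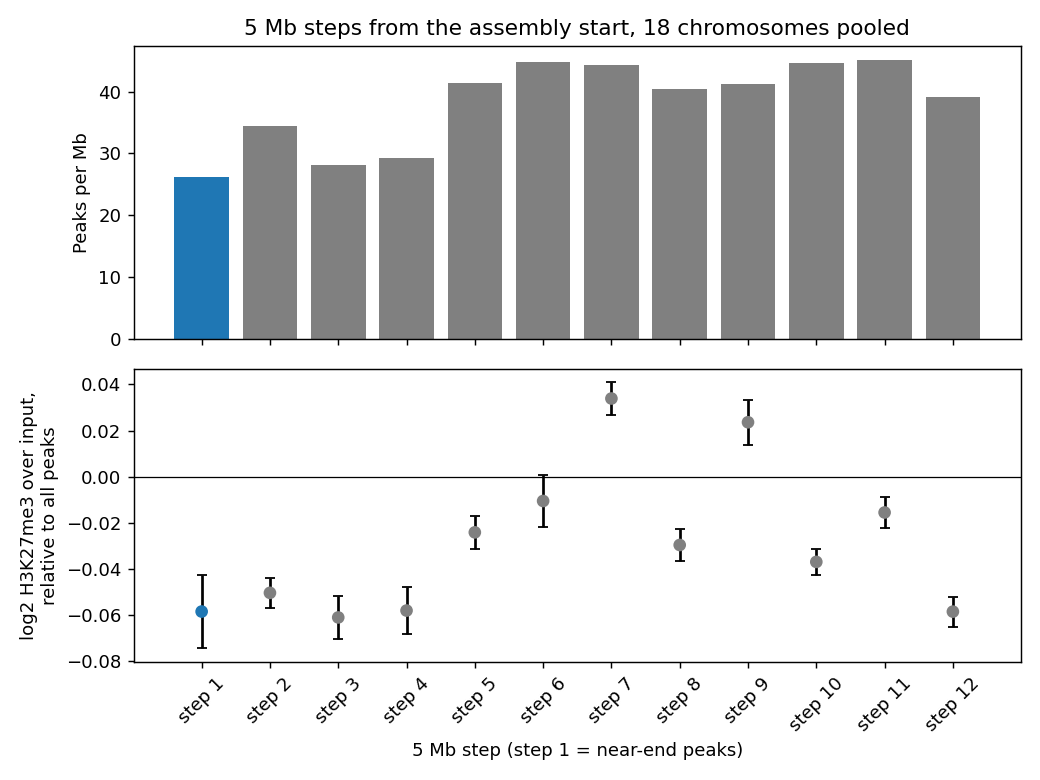
Upper panel: peaks per Mb in consecutive 5 Mb steps from the start of the assembly, 18 chromosomes pooled. Lower panel: mean log2 H3K27me3 over input of the summed counts relative to all peaks of these chromosomes, with the SD over 8 conditions. The first step, in blue, has the lowest density, with the steps from 13 to 23 Mb only slightly above it. Its ratio lies with those of the next 3 steps.

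By chromosome, the first 5 Mb was below the other peaks of its own chromosome on 13 chromosomes and above on 5. Chromosome 9 (-0.23 ± 0.065) and chromosome 18 (-0.22 ± 0.031) were lowest, followed by 13 (-0.19 ± 0.055) and 5 (-0.18 ± 0.039). Chromosome 3 (0.16 ± 0.055) and chromosome 19 (0.15 ± 0.036) were higher in all 8 conditions (SD, n = 8). Chromosomes 8 (0.00057 ± 0.017) and 16 (0.018 ± 0.030) differed from their remainder by less than their spread, and chromosome 1 (0.057 ± 0.055) by about as much as its spread. Chromosome 19 is also the richest in coding genes here, and held 26 of the 144 members called higher than input. Chromosome 13 held none of them.

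**Figure D3:**
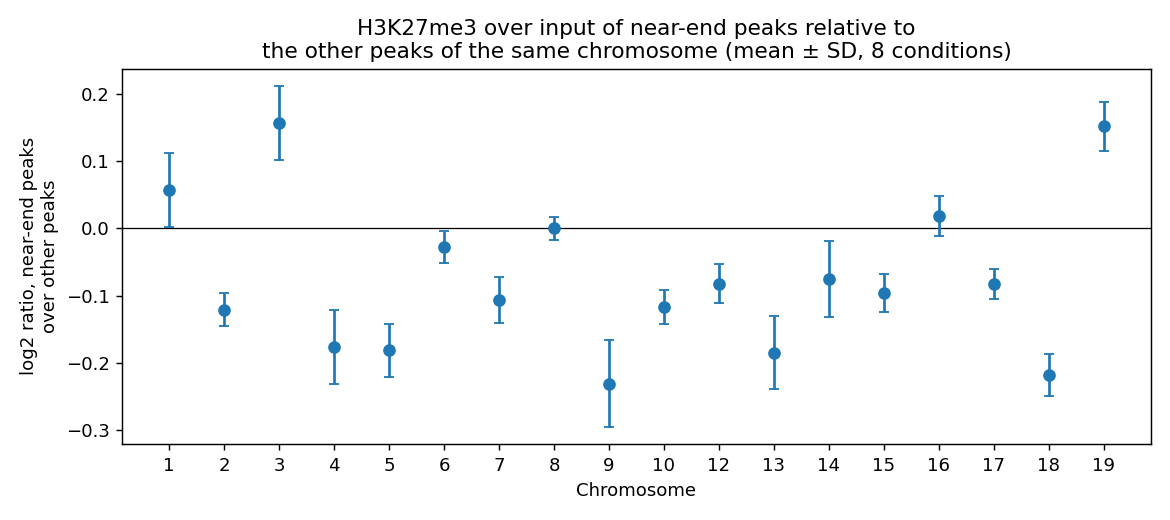
Log2 ratio of H3K27me3 over input for near-end peaks relative to the other peaks of the same chromosome (y axis) for 18 chromosomes (x axis), as the mean and SD over 8 conditions. Chromosomes 3 and 19 lie clearly above 0, and 9 and 18 lie lowest.

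Peak by peak, H3K27me3 was tested against input over the whole list with edgeR's quasi-likelihood test and Benjamini-Hochberg adjustment at 0.05, with conditions as blocks and total counts as library sizes. Of 2357 members tested, 144 were called higher than input (6.11%), where 7.76% of all peaks tested were, and 909 lower (38.6%), where 36% of all peaks were. The other peaks of the same chromosomes gave 7.29% and 34.2%. The median log2 ratio of the members was -0.24 against -0.21 for all peaks. On this scale total counts are equal, and 0 is the ratio of counts pooled over all peaks rather than an absence of the mark. Of all peaks 80.3% lay below 0, against 82.9% of the members. With TMM scaling the same members gave 261 higher and 245 lower, so these counts rest on the scaling.

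The strongest near-end peak lay over Tmem151a, a brain-expressed membrane protein, and the end of Yif1a, a protein of transport between endoplasmic reticulum and Golgi (mm10 chr19:5078390-5086780, starts as deposited). Its H3K27me3 over input was 2.40 and 1.68 in WT control at 0 and 48 h, 2.18 and 2.35 in WT transgene, 1.85 and 1.65 in KO transgene, and 2.24 and 1.88 for the line labelled KO control. All conditions lay above 1.6. WT control overlapped every other line, and KO transgene lay below WT transgene and the line labelled KO control. The fitted log2 ratio was 0.99 ± 0.055 (SE) with adjusted p = 4.08e-45 by edgeR, and 134 peaks of the whole list had a higher one.

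The Dlx domain came next and was the second widest member, at 62142 bp (chr6:6833415-6895557). Dlx5 and Dlx6 are homeobox transcription factors of the face, limb and forebrain interneurons, and Dlx6os1 and Dlx6os2 are noncoding RNAs transcribed against Dlx6, so that reads from them cannot be told apart within 1 peak. Its ratio was 1.74 and 1.69 in WT control, 1.97 and 2.02 in WT transgene, 2.02 and 1.80 in KO transgene, and 1.86 and 1.70 for the line labelled KO control. Every condition lay between 1.69 and 2.02. WT control lay below both transgene lines, and the line labelled KO control lay below WT transgene. The fitted log2 ratio was 0.88 ± 0.027 (adjusted p = 1.35e-89, edgeR). Npas4, an activity-dependent transcription factor of neurons (chr19:4977688-5003370), had 1.84 ± 0.106 times input (SD, n = 8), with values from 1.69 to 2.00 and a log2 ratio of 0.87 ± 0.035.

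The 10 strongest were taken among members whose mean count reached the median of all peaks, and the other 7 had log2 ratios from 0.65 to 0.82. Zc3h12d, which encodes a zinc finger RNA-binding protein, had 1.79 ± 0.241 times input. The peak over the zinc finger gene Zfp580 and Ccdc106 had 1.71 ± 0.220, Cd248, a surface protein of stromal cells and pericytes, 1.74 ± 0.302, and Kcnk4, a potassium leak channel, 1.71 ± 0.429. Gdnf, the glial cell line derived neurotrophic factor, had 1.60 ± 0.100 over 33439 bp, and Zfhx4, a zinc finger homeobox factor, 1.57 ± 0.0953 (SD, n = 8 conditions). The last, Gm3667 on chromosome 14 (1.63 ± 0.335), lies in an array of near-identical gene copies, where the authors' counting could split or drop reads, so its value is uncertain. Of the 10, 4 lay on chromosome 19, and 3 of these, Npas4, Cd248 and Tmem151a, between positions 4977688 and 5086780.

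**Figure D4:**
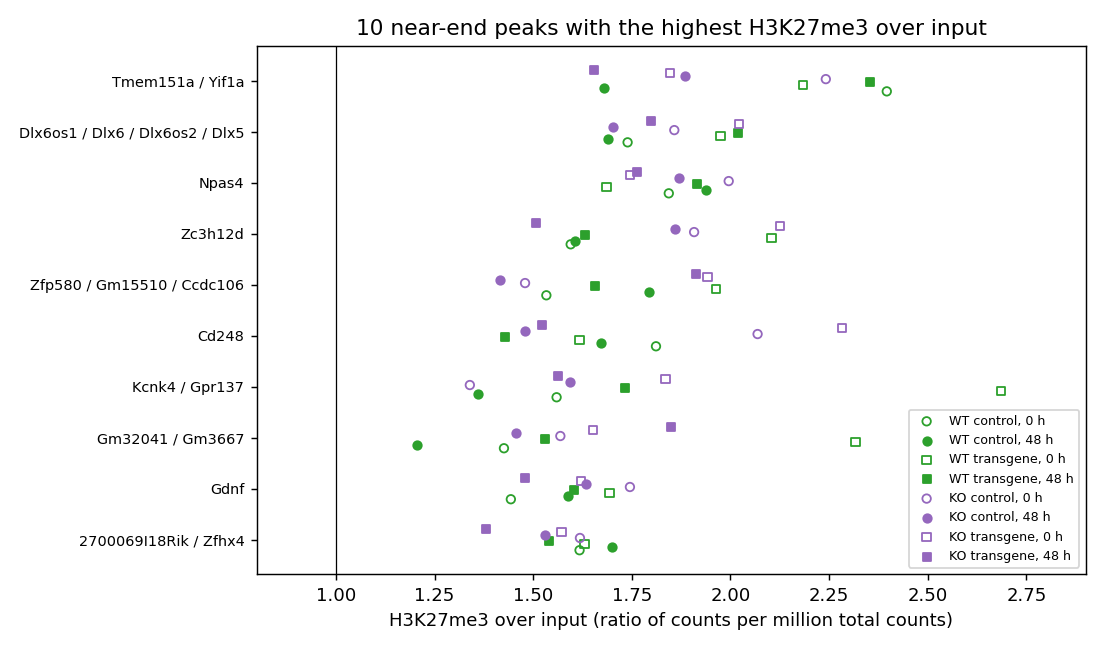
Ratio of H3K27me3 to input, each divided by its library's total count (x axis), at the 10 near-end peaks with the highest fitted ratio and sufficient depth (y axis), 1 point per condition. Green marks WT and purple KO lines, circles control and squares transgene lines, open symbols 0 h and filled symbols 48 h; every point lies above 1, and colours overlap in each row.

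Width and enrichment did not go together among the broadest members. The widest, 63375 bp over Evi5l, Prr36 and Lrrc8e on chromosome 8 (Evi5l is a Rab GTPase activator and Lrrc8e a subunit of a volume-regulated anion channel), had 1.27 ± 0.0633 times input. A 40665 bp peak at Ovol1, an epithelial zinc finger factor, had 1.42 ± 0.0753. The 44159 bp peak at Gm34371 on chromosome 17 had 1.00 ± 0.0457 and was not called (log2 0.0054 ± 0.032, adjusted p = 0.901, edgeR).

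Genes were also grouped by role. A gene region took in the gene and the 2000 bp before and after it, and 478 regions held near-end peaks, with a median H3K27me3 over input of 0.943 ± 0.019 (SD over 8 conditions) against 0.976 for all 18362 regions. The developmental transcription factors had the highest median, 1.08 ± 0.083 over 14 regions, 7 of them above 1. Among these Sox17, the endoderm factor, had 1.43 ± 0.113, Mkx, a tendon homeobox factor, 1.502 ± 0.247 and Zfhx4 1.42 ± 0.0865, whereas St18 had 0.839 ± 0.0345 and Esr1, the estrogen receptor with 34 peaks in its span, 0.903 ± 0.0391. Signalling ligands and receptors had 1.03 ± 0.061 over 17 regions, with Gdnf, Ptger4 (a prostaglandin receptor, 1.42 ± 0.129), Fzd1 (a Wnt receptor, 1.38 ± 0.115) and Gal (the neuropeptide galanin, 1.37 ± 0.145) highest.

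Neuronal genes with long spans lay lower than the developmental and signalling lists, though above the median of all near-end regions (0.943). Their 13 regions had a median of 0.964 ± 0.017, with 2 above 1, and the 87 peaks of the splicing factor Rbfox1 gave 0.965 ± 0.0204. In the imprinted domains around Peg10 and Peg3 the median was 0.914 ± 0.036 over 12 regions. Peg10, a paternally expressed gene derived from a retrotransposon, had 1.25 ± 0.114 and its neighbour Sgce, which encodes epsilon-sarcoglycan, 1.18 ± 0.132, while Casd1 had 0.875 ± 0.0283 and Usp29 0.857 ± 0.087. Matrix and fibroblast genes had 0.863 ± 0.066, with none of 7 above 1, and chromatin and housekeeping genes 0.959 ± 0.128 over 6 regions.

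The first comparison between lines asked whether near-end H3K27me3 differed between the KO and WT backgrounds. The near-end share of H3K27me3 counts on these chromosomes was 2.06% and 2.07% in WT control at 0 and 48 h, 2.06% at both times in WT transgene, 2.05% and 2.04% in KO transgene, and 2.03% at both times for the line labelled KO control. The KO libraries were all lower than the WT libraries, with the lowest values in the line labelled KO control. The means were 2.038% ± 0.0126 and 2.063% ± 0.0026 (SD, n = 4 each), a change of -1.20%, with p = 0.0286 by an exact two-sided permutation test, the smallest it allows, and 0.129 after adjustment over 9 share tests, which does not pass. In the inputs the share was 2.140% ± 0.0086 in KO and 2.131% ± 0.0088 in WT and overlapped (exact permutation p = 0.229).

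With whole lines exchanged the exact permutation p was 0.333, the smallest that exchange allows, and without the line labelled KO control the difference went from -0.025 to -0.014 percentage points (exact permutation p = 0.0667, the smallest possible). Of the 12 consecutive 5 Mb steps, 2 had KO and WT libraries that did not overlap, the first and the one from 28 to 33 Mb, and the step from 13 to 18 Mb had as large a mean difference as the first (-0.017 on the log2 scale in both). For transgene against control lines the near-end share was 2.055% ± 0.0087 and 2.046% ± 0.0210 (exact permutation p = 0.429), and for 48 h against 0 h 2.050% ± 0.0185 and 2.051% ± 0.0151 (p = 0.914 by the exact permutation test). Both pairs of groups overlapped (SD, n = 4 each).

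**Figure D5:**
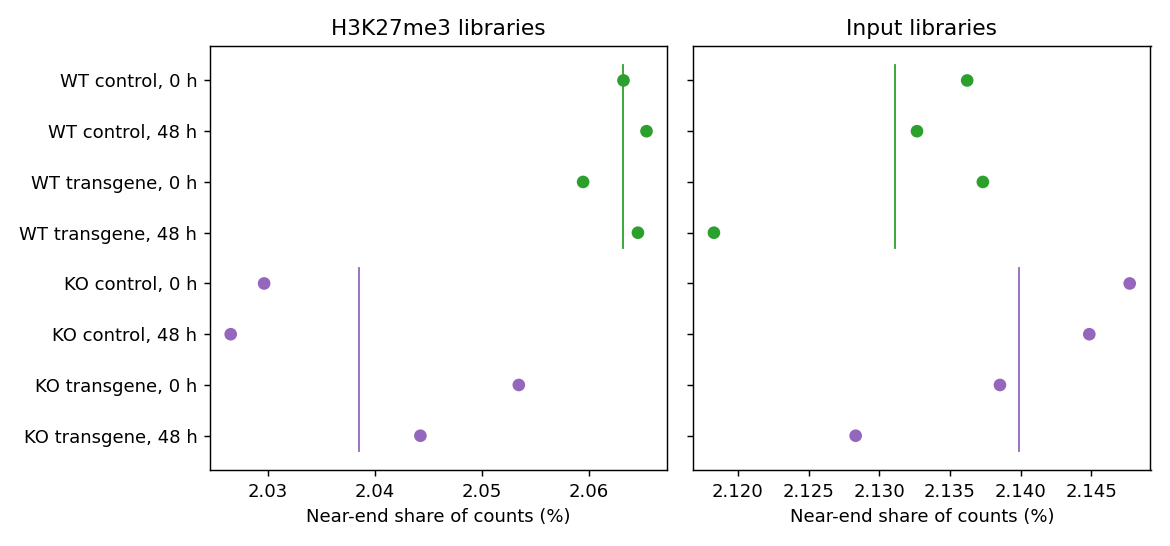
Near-end share of the counts on 18 chromosomes in percent (x axis, not starting at 0) for each of 8 conditions (y axis), in H3K27me3 libraries (left) and inputs (right); vertical lines are the means of the 4 WT (green) and 4 KO (purple) libraries. On the left all KO points lie below all WT points, and on the right they overlap.

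Single members were tested between backgrounds in an additive model with transgene and time, over all 102957 peaks with edgeR. Of 2358 members, 20 were called higher in KO (3.8% of all peaks were) and 20 lower (0.622% of all peaks were), and in either direction 4.42% of all peaks were called. On the same chromosomes 1.65% of the other peaks were called in either direction, against 1.70% of the members, and a share that near is no result about the members. The median log2 difference of the members was -0.03 against -0.0056 over all peaks. In the inputs 2 of 2270 members were called, both lower, where 1.94% of all peaks and 0.093% of the other peaks of these chromosomes were called. With chromosome 11 left out of the fit 18 members were called, 13 higher and 5 lower, and without the line labelled KO control 9 were, 3 higher and 6 lower. Over all peaks in these fits 973 and 1666 were called. Under total counts the split was 12 higher and 31 lower.

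The clearest rise in KO was at the start of Cdk6, a kinase of the G1 phase of the cell cycle, and the noncoding Gm36470 (chr5:3334215-3344271). H3K27me3 CPM, the count scaled to equal library size with TMM factors, stood at 15.9 and 15.4 in WT control and 13.2 and 14.1 in WT transgene. It stood at 21.5 and 17.8 in KO transgene and at 20.5 and 20.2 for the line labelled KO control. Every KO library was above every WT library. The log2 difference was 0.45 ± 0.072 (SE) with adjusted p = 7.63e-07 by edgeR, and input gave -0.09 (adjusted p = 0.911, edgeR). The peak stood below input all the same, at 0.753 ± 0.153 times on the scale of equal total counts.

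A peak at B4gat1, a glycosyltransferase of dystroglycan, and Brms1, a transcriptional repressor (chr19:5034120-5040418, with the noncoding Gm30581), had a CPM of 17.9, 14.8, 14.7 and 13.3 in the WT libraries and 22.7, 20.3, 19.6 and 18.4 in the KO libraries. The groups did not overlap, and the log2 difference was 0.42 ± 0.071 (adjusted p = 1.97e-06, edgeR). The peak at Zfp787, a zinc finger gene, rose by 0.39 ± 0.072 (adjusted p = 2.12e-05), and a peak on chromosome 6 with no gene within 2000 bp rose by 0.51 ± 0.10 (adjusted p = 9.16e-05, both by edgeR). These calls held under all 17 alternatives for the Cdk6 and B4gat1 peaks, and were lost without the line labelled KO control and with input as an offset for the peaks at Zfp787 and on chromosome 6. Another peak without a gene, on chromosome 10, rose by 0.37 ± 0.12 (adjusted p = 0.0471, edgeR) and lost its call in 12 of 17 alternatives. Cd248 was the only one of the 10 strongest members called between backgrounds, at 0.29 ± 0.087 (adjusted p = 0.0334, edgeR), and lost its call in 11 of 17.

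The clearest fall was at Tnni3, cardiac troponin I, and Dnaaf3, an assembly factor of ciliary dynein (chr7:4519179-4522610). CPM was 7.93, 9.99, 9.43 and 11.1 in the WT libraries and 5.71, 5.91, 8.02 and 6.38 in the KO libraries, and the highest KO value, in KO transgene at 0 h, overlapped the lowest WT value. The log2 difference was -0.57 ± 0.10 (adjusted p = 1.61e-05, edgeR), and it lost its call only with input as an offset among 17 alternatives. A further 3 peaks with no gene within 2000 bp, on chromosomes 15, 13 and 12, fell by 0.45 ± 0.12, 0.43 ± 0.13 and 0.39 ± 0.11. Input at the peak on chromosome 15 was lower too, at -0.27 (adjusted p = 0.733, edgeR). The call on chromosome 15 was lost in 5 of 17 alternatives and those on chromosomes 13 and 12 in 9 and 8, among them without the line labelled KO control.

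At gene level 35 of 478 near-end regions were called between backgrounds (7.32%), 13 higher and 22 lower. Over all regions 13.2% were called, 9.54% higher and 3.68% lower. All regions include chromosome 11, and no share was taken over the same chromosomes alone. Among single peaks 0.848% of members and 1.02% of the other peaks of these chromosomes were called higher, against 3.8% of all peaks. Without the line labelled KO control 23 near-end regions were called, 8 higher and 15 lower, of which 11 were among the 35. Total counts gave 9 higher and 54 lower near-end regions. Over all 18362 regions the fit without that line called 1738, and the fit with total counts 3148. Among the largest were Epc1, a subunit of an acetyltransferase complex (0.67 ± 0.18, 1.70 to 2.05 CPM in WT and 2.52 to 3.86 in KO libraries), Cdk6 (0.34 ± 0.051), Tnni3 (-0.59 ± 0.11), Dnaaf3 (-0.39 ± 0.088), Rin1, a Ras effector (-0.38 ± 0.12), Actn3, the actinin of fast muscle (-0.36 ± 0.10), and Nlrp4c (-0.29 ± 0.066). The calls of Epc1, Rin1, Actn3 and Nlrp4c were lost without the line labelled KO control, and input at Rin1 differed the other way, by 0.53 (adjusted p = 0.138, edgeR). By role, the developmental factors had 1 of 14 higher, Plag1, a zinc finger factor (0.24 ± 0.059), and the neuronal genes 3 of 13 lower, Syt12 (-0.16 ± 0.042), Klhl29 (-0.08 ± 0.023) and Rbfox1 (-0.07 ± 0.023). The imprinted list had 1 of 12 higher, Sgce (0.15 ± 0.045), the chromatin list 1 of 6 higher, Epc1, and the signalling and matrix lists had none of 17 and of 7. Without the line labelled KO control Syt12 went to -0.08 and Sgce to 0.03, and both lost their call, while Plag1, Klhl29 and Rbfox1 were still called. Medians of the lists lay between -0.11 for matrix genes and 0.01 for imprinted genes, against -0.04 for all near-end regions.

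Between transgene and control lines, with background and time in the model, no member was called by edgeR, where 0.0748% of all peaks were, and 171 members had an unadjusted p under 0.05 (7.25%, against 7.79% of all peaks). DESeq2 and limma-voom also called 0. Without the line labelled KO control 6 members were called, all higher, where 232 of the 102957 peaks in the list were called. At gene level 1 of 478 near-end regions was called, where 1.38% of all were. This was Plag1, at 23.5, 25.2, 28.3 and 29.3 CPM in the control and 21.5, 19.8, 24.0 and 26.2 CPM in the transgene libraries, the log2 difference being -0.22 ± 0.059 (adjusted p = 0.0499, edgeR). The groups overlapped. The call was lost under total counts, with the gene span alone and without the line labelled KO control. DESeq2 gave Plag1 no adjusted p here and called no near-end region.

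Between 48 and 0 h of doxycycline, with the line as block, 1 member was called, where 0.109% of all peaks were (0.102% lower and 0.0068% higher). It was the Dlx domain. Its CPM went from 204 to 187 in WT control, from 225 to 223 in WT transgene, from 232 to 211 in the line labelled KO control and from 235 to 205 in KO transgene. All 4 lines, controls included, were lower at 48 h, WT transgene least. The log2 difference was -0.12 ± 0.022 (adjusted p = 0.000322, edgeR), and input gave -0.036 (adjusted p = 0.996). DESeq2, input as an offset, a model without the line and leaving out either library of KO transgene each ended the call.

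At gene level 10 near-end regions changed with time (2.09%), where 2.1% of all regions did, 7 lower (1.66% of all regions) and 3 higher (0.447%). Lower at 48 h were Dlx6 with Dlx5, Dlx6os1, Sox17 (-0.11 ± 0.029, from 109, 114, 108 and 113 CPM at 0 h to 102, 106, 101 and 103 CPM at 48 h), Sgce (-0.11 ± 0.030), Fzd1 (-0.16 ± 0.045), Ptger4 (-0.16 ± 0.049) and Map3k8, a kinase of innate immune signalling (-0.26 ± 0.077). Sox17 was lower in all 4 lines, and its groups did not overlap. The inputs of some of these regions were lower at 48 h as well, by log2 values of -0.13 at Sgce, -0.12 at Ptger4 and -0.16 at Map3k8, against -0.0055 at Sox17 and -0.018 at Fzd1, none of them called, and their part in the result was not tested. Without the line labelled KO control the calls of Sox17, Fzd1, Ptger4 and Map3k8 were lost, at values of -0.11, -0.16, -0.16 and -0.26. Higher were 3 neighbouring regions on chromosome 8, Fcer2a, the low-affinity IgE receptor (0.12 ± 0.031), Clec4g, a lectin (0.13 ± 0.032), and Gm16553 (0.11 ± 0.030). Their inputs stood higher at 48 h by 0.07, 0.08 and 0.06, none of them called, and the part of this in the result was not tested. DESeq2 called Dlx6os1 and not Dlx6, and gave the others of the 10 no adjusted p. By list, 2 of 14 developmental and 2 of 17 signalling regions fell, 1 of 12 imprinted regions fell, and none of the neuronal, matrix and chromatin regions was called.

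The added effect of 48 h in transgene over control lines, which is the induction of Firre as the design frames it, gave no member and no near-end gene region. Over all features 0.00583% of peaks and 0.049% of gene regions were called by edgeR. At an unadjusted p under 0.05 there were 124 members (5.26%, against 4.91% of all peaks) and 26 near-end regions (5.44%, against 5.28% of all regions). DESeq2 and limma-voom called 0 members. It is a difference of differences between libraries without repeats, and a count of 0 does not show that levels did not differ.

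Summed over each first 5 Mb, which pools the counts of 31 to 243 peaks, differences were small. Of the 18 stretches 1 was called between backgrounds, where 20% of the 521 windows of 5 Mb were, 12.1% higher and 7.87% lower. This was chromosome 16 (-0.05 ± 0.012, adjusted p = 0.0481, edgeR), with H3K27me3 CPM of 1643 to 1664 in WT and 1587 to 1630 in KO libraries, lower in every KO library; it lost its call without the line labelled KO control, and when 1 of 4 single libraries was left out, WT control at 0 h, WT transgene at 48 h or either of the line labelled KO control. Total counts gave 10 of 18, all lower, where 295 of all 521 windows were called. At an unadjusted p under 0.05 the main fit between backgrounds gave 7 of 18 (38.9%, against 39.0% of all windows). Time gave 2 stretches, where 22.1% of windows were called, 9.4% lower and 12.7% higher. They were chromosome 1 (-0.06 ± 0.013, adjusted p = 0.00797) and chromosome 6 (-0.03 ± 0.0070, adjusted p = 0.00818, both by edgeR), each lower at 48 h in all 4 lines. Input on chromosome 6 was also lower at 48 h in all 4 lines, by a log2 value of -0.04 ± 0.011 (adjusted p = 0.268, edgeR), which is at least as much as H3K27me3, and on chromosome 1 input gave -0.02 ± 0.020; their part in the result was not tested. DESeq2 gave neither stretch an adjusted p. Chromosome 1 lost its call without the line labelled KO control and chromosome 6 without KO transgene at 0 h. Transgene and induction gave none, where 0.192% and 0% of windows were called, and DESeq2 gave 0 for both. At an unadjusted p under 0.05 there were 3 for transgene (16.7%, against 19.4% of all windows) and 2 for induction (11.1%, against 8.25%). For time there were 4 (22.2%, against 36.9%).

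Whether the transgene lines differed from their controls alike in both backgrounds was tested with the term of background by transgene. Since each background has 1 line of each kind, a difference of this term is a difference between 4 single lines. The term cannot be fitted without the line labelled KO control, whose DNA did not bear out that label. No near-end window was called in H3K27me3, where 25.3% of windows were. An unadjusted p under 0.05 was found in 3 of 18 (16.7%, against 38.8% of all windows). Total counts called 7, where 203 of all 521 windows were called. On single members, tested so only once the data had been seen, 8 were called (0.339%), where 0.441% of all peaks were, and 7 of the 8 were negative (0.397% of all peaks), meaning a smaller or more negative difference between transgene and control in KO than in WT.

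The largest was a narrow peak in Peg10 (chr6:4753434-4755446). Its H3K27me3 CPM stood at 2.34 and 2.91 in WT control, 7.42 and 5.15 in WT transgene, 2.52 and 2.44 in KO transgene, and 2.17 and 3.36 for the line labelled KO control, from 22 to 100 counts per library. WT transgene stood above the 3 other lines at both times, while its input CPM, 4.92 and 3.98, lay within the range of the others (3.16 to 6.05). The term of background by transgene was -1.44 ± 0.32 on the log2 scale (adjusted p = 0.00466, edgeR). The neighbouring broad peak over Sgce and the start of Peg10 (chr6:4719377-4749114) had 79.5, 67.5, 80.04 and 81.2 CPM in the WT libraries and 90.3, 90.1, 87.2 and 75.1 in the KO libraries, the transgene line lying above its control in WT and below it in KO at both times. In the same term it gave -0.29 ± 0.066 (adjusted p = 0.00469, edgeR). In the additive model the differences between backgrounds were of opposite sign, -0.78 for the narrow and 0.15 for the broad peak. The value of the broad peak lost its call in 10 of 17 alternatives. Without the line labelled KO control, where only KO transgene and WT transgene are compared, the broad peak was at 0.0080 and the narrow peak at -1.33. At the narrow peak WT control and the line labelled KO control overlapped, so its background difference rests on the high WT transgene line.

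The other members with a negative value in this term were Npas4 (-0.29 ± 0.061), the Dlx domain (-0.21 ± 0.043), Macrod1 with Flrt1 (-0.32 ± 0.078), Mkx (-0.33 ± 0.088) and Smim17 (-0.37 ± 0.091). Each had a higher CPM in WT transgene than in WT control and a lower mean log2 CPM in KO transgene than in the line labelled KO control. At Npas4 the values were 89.7 and 86.2 in WT control, 96.5 and 99.8 in WT transgene, 92.9 and 99.1 in KO transgene, and 109 and 101 for the line labelled KO control. The only positive one was the olfactory receptor gene Olfr5 (1.56 ± 0.41), on 9 to 45 counts per library, with 0.886 and 1.56 CPM in the line labelled KO control and 3.54 and 2.17 in KO transgene. None of the 8 kept its call with input as an offset. DESeq2 called none of the 6 to which it gave an adjusted p, and gave the narrow Peg10 peak and Olfr5 none.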

How the data were processed

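The authors deposited counts, in whole reads, of each library at each consensus peak and a list of the peaks, with 1 caller fold enrichment (a ratio), 1 score and a -log10 q-value per peak. In that deposited list the score was 10 times the -log10 q, within 1, at 99.99% of peaks. The submitters' processing notes name the build mm10 and the tools DESeq2 1.26.0, featureCounts, MACS2 2.2.71 and BWA 0.7.17-r1188, with no role or order, and other settings are not given in the sources used here. The caller's values are the authors' and served only to describe peaks; whether starts count from 0 or 1 is not stated.

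Counts were analysed per peak, summed in 5 Mb windows and summed over gene regions, in R 4.3.3 with edgeR 4.0.16: quasi-likelihood test, TMM scaling, filterByExpr, Benjamini-Hochberg adjustment over all features at 0.05. Background, transgene and time were additive terms, time had the line as block, and induction was the product of transgene and time. H3K27me3 against input used total counts and conditions as blocks. Ratios given per condition are of counts divided by total counts. Shares and summed ratios were tested by exact permutation. Total counts of 10380781 to 14787938 (H3K27me3) and 3340654 to 6244333 (input) gave a median of 55.4 H3K27me3 reads per peak, which sets the precision. DESeq2 1.42.0, limma 3.58.1 (voom), other scalings, filters, windows and left-out libraries were the alternatives. The tests were tested on simulated data.

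Named are the 10 members with the highest ratio to input among those at or above the median count, the 5 widest, up to 5 rises and 5 falls per comparison, and members called in the term of background by transgene; Cd248 and the Sgce peak were added to the background results after their values were seen. Of the members this rule names, 2 are not reported here. Members and lists were chosen with earlier results of these data known. No reference genome was used here, so peak sequences are not shown, and gene names come from RefSeq tables.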

Additional observations from a re-analysis of the deposited data

Results flagged for a closer look

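At 8 near-end peaks the difference between transgene and control lines itself differed between backgrounds (edgeR, term of background by transgene, over all peaks). As KO minus WT on the log2 scale, these were Mkx at -0.33, Npas4 at -0.29, Macrod1 with Flrt1 at -0.32, Sgce with Peg10 at -0.29, the narrow Peg10 peak at -1.44, the Dlx domain at -0.21, Smim17 at -0.37 and Olfr5 at 1.56. Within WT the transgene line stood above its control by 1.25 at the narrow Peg10 peak, by 0.30 at Smim17 and by 0.19 at Mkx, and within KO it stood at -0.12, -0.07 and -0.13. Olfr5 was the exception in direction, at -0.41 within WT and 1.24 within KO. The KO side of each value rests on the line labelled KO control, whose DNA did not bear out that label.

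In the inputs, which carry no antibody signal, 2 near-end windows differed in the same term, where 11.1% of windows did: chromosome 7 at -0.0805 and chromosome 19 at -0.0625 (adjusted p = 0.0269 for both, edgeR). Input CPM on chromosome 19 was 1825 and 1856 in WT control, 1892 and 1856 in WT transgene, 1840 and 1842 in KO transgene, and 1853 and 1910 for the line labelled KO control. H3K27me3 did not pass in either window.

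Among 45 groups of values tested for a sample far from the others, 1 stood out: H3K27me3 over input at Kcnk4 was 2.69 in WT transgene at 0 h, against 1.34 to 1.84 in the other 7 conditions. Chance marks about 1 in 20 such groups.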

How the results depend on the processing

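No paired analysis was possible because replicate numbers pair nothing here: every group of the labels holds 1 replicate; time was paired by line and H3K27me3 with input by condition. Each library or condition left out in turn is given as a range.

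The summed near-end ratio to input stayed below 0 throughout. It was -0.0597 with 4 lines as units (exact permutation p = 0.125, the smallest possible), -0.0027 against peaks between 8 and 23 Mb, and -0.063 to -0.056 with a condition left out. The KO minus WT share difference (-0.025 percentage points) was -0.0077 in the first 2 Mb (exact permutation p = 0.114), -0.025 with whole lines exchanged (p = 0.333, exact), -0.014 without the line labelled KO control and -0.0297 to -0.0207 with a library left out. Its log2 ratio over input was -0.024 with whole lines exchanged, -0.019 in the first 2 Mb, -0.012 without the line labelled KO control and -0.0278 to -0.0197 with a condition left out. The input share turned from 0.0087 to -0.039 with all peaks as denominator. The transgene share turned to -0.00227 in the first 10 Mb, and that of the inputs to 0.0057 with all peaks as denominator. The time share turned to 0.0029 in the first 2 Mb and ranged from -0.0085 to 0.0066 with a library left out; inputs gave -0.014 to -0.0047 and the log2 ratio -0.0018 to 0.014.

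Against input, TMM gave 261 members higher and 245 lower and DESeq2 451 lower; with a condition left out 127 to 143 were higher and 797 to 847 lower. For background, members called were 5 with DESeq2, 18 without chromosome 11, 9 without the line labelled KO control, 2 with input as an offset and 14 to 33 with a library left out. Windows were 10 under total counts, 3 each with DESeq2, limma-voom and without chromosome 11, 0 without the line labelled KO control and 0 to 3 with a library left out; input windows were 4 under total counts. Gene regions were 63 under total counts, 8 with DESeq2 and 23 without the line labelled KO control. Under total counts 295 of all 521 windows and 3148 of all 18362 gene regions were called for background. For the transgene, members were 1 under total counts and with DESeq2 size factors, 6 without the line labelled KO control and 0 to 1 with a library left out. Windows were 2 and gene regions 12 without that line, and gene regions 0 under total counts, with DESeq2 and with the gene span alone. Over all features the fits without that line called 232 peaks, 98 windows and 459 gene regions. For time, members were 0 with DESeq2, with input as an offset and without the line block, 3 with limma-voom, 2 at a minimum mean count of 50 and 0 to 1 with a library left out; windows were 0 with DESeq2, 1 without the line labelled KO control and 1 to 3 with a library left out, and gene regions 1 with DESeq2. For background by transgene, members were 3 under total counts, 0 with DESeq2 and with input as an offset, 5 at a minimum mean count of 50 and 2 to 7 with a library left out. Windows were 7 under total counts, where 203 of all 521 were called, and 0 to 3 with a library left out. Input windows were 0 under total counts and 0 to 2 with a library left out. Induction gave 0 members and 0 windows in every setting run, which says little about stability in so small a design. The Gm34371 peak over input turned from 0.0054 to -0.00558, -0.00354 and -0.002 without KO transgene at 48 h, WT control at 0 h and WT transgene at 48 h, and reached 0.022 without WT control at 48 h. The cause was not tested in any of these. DESeq2 left some near-end features without an adjusted p, among them the time windows of chromosomes 1 and 6. Its counts here rest on the others. Tests of the line labelled KO control left out, of 8 to 23 Mb, of the log2 ratio of shares and of background by transgene on peaks and inputs were chosen after seeing the data.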
